A study of Mus musculus with 6 samples.

Results

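The genes of the replicative DNA helicase were followed in neural stem cells with and without Pml: Mcm2, Mcm3, Mcm4, Mcm5, Mcm6, Mcm7, Mcm10, Cdc45, Gins1 and Gins2. These 10 genes were taken by symbol from a count table of 24421 genes. The table came from primary neural stem cells of mouse embryos (E13.5), grown as neurospheres (free-floating clusters of dividing progenitors) in proliferation medium with 20 ng/ml each of EGF and FGF2, under 20% oxygen, and lysed on day 4 after dissociation. One group was WT (3 libraries) and the other lacked Pml (3 libraries, Pml-/-), the gene of the protein that scaffolds PML nuclear bodies. Both genotypes shared medium, age, library kit and batch date. Strain, the deleted part of Pml and the number of embryos behind each library are not given in the labels, so p-values measure the spread between libraries, which may be technical.

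The helicase unwinds DNA ahead of the replication fork. Mcm2 to Mcm7 form a ring of related ATPases that is loaded around DNA as an inactive pair at origins in G1, a step called licensing. In S phase Cdc45 and the GINS complex (Gins1 to Gins4) bind the ring and switch it on, and Mcm10 helps the assembled helicase start to unwind. Transcription of these genes rises in cycling cells under E2F factors, so in embryonic neural progenitors their messages are commonly read as signs of S-phase entry.

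RefSeq promoter windows on GRCm38.p6 (the assembly of the authors' mm10 build) were matched for 7 of the 10 genes, with 2 windows for Mcm7, so 8 windows in all; Mcm4, Gins1 and Gins2 had no entry. The bases just before the start site are shown for 4 ring genes, because E2F letters are the known shared feature of this family and because these genes differed in how far apart WT and knockout stood. Capitals mark matches to the E2F letters TTTCCCGC, TTTGGCGC, TTTCGCGC or TTTGCCGC and to CCAAT, the letters bound by NF-Y, on either strand, and 200 bases are printed per gene, 5′ to 3′ on the gene's own strand. Mcm5 lies on the plus strand (chr8:75109309-75109508), and Mcm6 (chr1:128359706-128359905), Mcm7 (chr5:138171884-138172083) and Mcm3 (chr1:20820313-20820512) on the minus strand.
Mcm5: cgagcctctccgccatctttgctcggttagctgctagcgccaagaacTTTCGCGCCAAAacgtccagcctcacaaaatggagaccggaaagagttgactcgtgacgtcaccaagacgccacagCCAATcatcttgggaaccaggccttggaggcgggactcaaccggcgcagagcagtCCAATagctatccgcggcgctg
Mcm6: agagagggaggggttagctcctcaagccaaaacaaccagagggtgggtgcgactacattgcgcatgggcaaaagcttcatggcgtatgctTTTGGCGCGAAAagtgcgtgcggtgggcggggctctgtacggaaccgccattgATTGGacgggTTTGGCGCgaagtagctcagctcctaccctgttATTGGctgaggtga
Mcm7: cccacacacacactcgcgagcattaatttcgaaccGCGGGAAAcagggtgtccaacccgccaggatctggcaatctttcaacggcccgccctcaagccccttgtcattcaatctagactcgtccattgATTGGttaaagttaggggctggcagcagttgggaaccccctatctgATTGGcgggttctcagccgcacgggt
Mcm3: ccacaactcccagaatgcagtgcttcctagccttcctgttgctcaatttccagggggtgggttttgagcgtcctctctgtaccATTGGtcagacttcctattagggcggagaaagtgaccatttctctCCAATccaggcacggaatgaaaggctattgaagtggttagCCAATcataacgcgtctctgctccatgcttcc

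E2F letters were found within 250 bases before the start site in 3 of the 7 matched genes: Mcm5, Mcm6 and Mcm7. By window this was 3 of 8 (37.5%). The other Mcm7 window and those of Mcm2, Mcm3, Mcm10 and Cdc45 held 0. Across all 32851 windows of that length, 1.86% held them. In Mcm5 the match TTTCGCGC began at -153 and overlapped TTTGGCGC on the other strand, whose leftmost base was at -149. Mcm6 carried the same overlapping arrangement, with TTTGGCGC at -110 and TTTCGCGC on the other strand at -106, and a further TTTGGCGC at -47. Mcm7 carried TTTCCCGC on the other strand at -165. CCAAT letters were present in 8 of 8 windows, against 33.8% of all windows, and Mcm3 held 3 of them. A match to letters is a description of the sequence and not a bound site.

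The libraries differed in depth and content. Totals ran from 1775152 to 4413318 counts in WT and from 4980638 to 5917505 without Pml, and the helicase genes together received 724 to 4881 and 2658 to 4295 of them. Pre-ribosomal Rn45s took 19.6% to 41.9% of the counts in WT and 14.6% to 17.6% in the knockout. Of 12 neural stem cell markers 0 were at 0 throughout, though Msi1 had 0 to 5 reads. They summed to 8742 to 10110 CPM (counts scaled to equal library totals outside Rn45s) in WT and 10440 to 13240 without Pml. Single markers differed from the sum. WT replicate 2 had 92 reads of Fabp7, 138 of Nes, 15 of Pax6 and 20 of Hes1, among 1068340 outside Rn45s. WT replicate 3 had 3120, 1732, 154 and 343, among 3162813. Others, such as Sox2 (1339 and 2219 reads), were higher in WT replicate 2 relative to those totals. A list of 21 hepatocyte markers summed to 251 to 1112 CPM in WT and 122 to 163 without Pml, and 0 of the 21 were at 0 throughout. The 7 microglia markers summed to 35.6 CPM in WT replicate 2 and to at most 3.90 elsewhere, and all 5 globin genes on the erythroid list were at 0. The 5 astrocyte markers summed to 188, 475 and 129 CPM in WT replicates 1 to 3 and to 208, 502 and 376 in knockout replicates 1 to 3. In WT replicate 2 most of the sum was Gfap (129 reads) and S100b (206), beside Aqp4 (21), Aldh1l1 (71) and Gja1 (80). Relative to counts outside Rn45s, Aldh1l1 was lower there than in WT replicate 1 (219 reads among 2566183). In knockout replicate 2 the reads, in the same order, were 149, 442, 598, 329 and 615. The helicase genes together were lowest in WT replicate 2 and knockout replicate 2, and a link to these markers was not tested. The 5 oligodendrocyte precursor markers summed to 1252 CPM in WT replicate 2 and to 2202 to 2817 elsewhere. Most of that sum was Olig1 and Olig2, with 658 and 364 reads in WT replicate 2 and 6193 and 2380 in WT replicate 3. Pdgfra had 61 and 181 reads in these libraries and Cspg4 45 and 112. Sox10 went against the sum, with 210 reads in WT replicate 2 and 45 in WT replicate 3. The 8 neuron markers summed to 972 to 1296 CPM throughout. WT replicates 1 and 2 had the high values of both Rn45s and the hepatocyte list, and the part that these lists and Rn45s play in the results was not tested. Pml itself had 36, 35 and 44 reads in the WT libraries and 14, 23 and 5 in those labelled knockout, without overlap (log2 fold change -2.81, SE 0.661, edgeR adjusted p 0.197).

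In the knockout 9 of the 10 helicase genes had a lower fitted level than in WT and Mcm4 a higher one, but 0 of 10 had an adjusted p under 0.05 in edgeR's quasi-likelihood test, where 0.00884% of all 11317 tested genes did (1 gene, on the higher side, so 0% lower). The median log2 fold change of the 10 was -0.57, beside -0.01 over all genes tested, of which 50.3% lay below 0. At an unadjusted p under 0.05, 4 of 10 were lower (Mcm3, Mcm5, Mcm7 and Mcm10) and 0 higher, where 9.19% of all genes were lower and 6.7% higher. The 3 knockout libraries lay wholly below the 3 WT libraries for 2 of 10 genes, Mcm5 and Mcm7, where 11.3% of all genes did so and 12.3% lay wholly above; a count of 2 is close to that background.

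**Figure D1:**
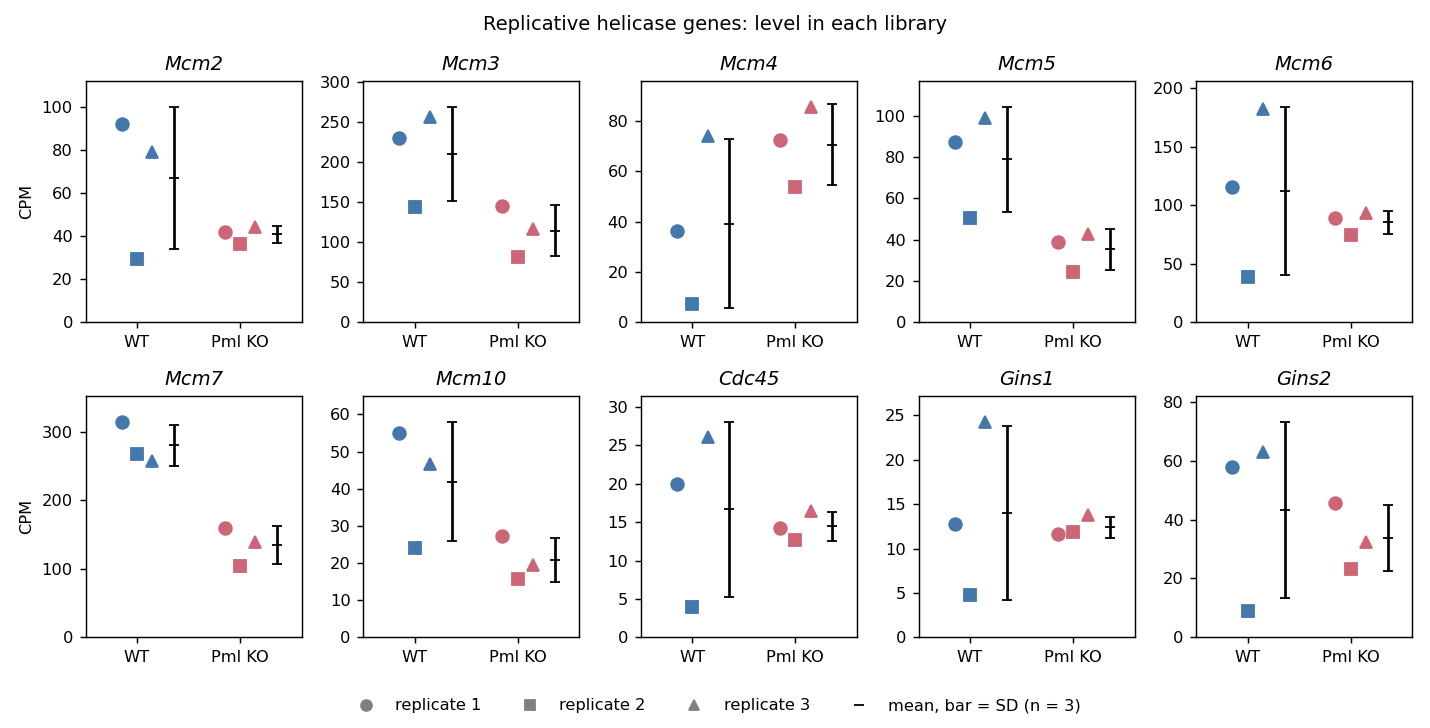
Level of each helicase gene in CPM (scaled counts with library factors, vertical axes from 0) in 3 WT and 3 Pml knockout libraries. Symbols mark replicate numbers, which are not treated as pairs, and bars give mean and SD. Mcm5 and Mcm7 have no overlap between genotypes, and WT replicate 2 is the lowest of the 6 libraries for Mcm2, Mcm4, Mcm6, Cdc45, Gins1 and Gins2.

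Mcm7, a ring subunit next to Mcm4 and Mcm3 (ENSMUSG00000029730.16, chr5:138164583-138172422, minus strand, GRCm38), had the smallest p of the 10. Its level, in CPM with library factors, was 315, 268 and 257 in WT replicates 1, 2 and 3 and 159, 105 and 139 in knockout replicates 1, 2 and 3. Every knockout library was below every WT library, and the WT libraries were close to one another. The means were 280 ± 30.5 and 134 ± 27.6 CPM (SD, n = 3 each), with a log2 fold change of -1.06 (SE 0.262, 95% interval -1.64 to -0.48) and an edgeR adjusted p of 0.197. DESeq2 gave an adjusted p of 0.0113 and edgeR's exact test 0.0369, so Mcm7 passed by both tools, which passed 1.97% and 1.51% of all genes on the lower side (0.928% and 0.99% on the higher side). It also passed without WT replicate 3 (adjusted p 0.0274), a fit in which 7.97% of all genes were lower and 5.01% higher, and by voom with quality weights (adjusted p 0.00842). The authors' deposited table lists a log2 fold change of -1.03 for it and an adjusted p of 0.0508; 2.94% of genes were under 0.05 there.

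Mcm7 ends against a neighbour. The 3′ ends of Mcm7 and Cops6, a signalosome subunit gene on the opposite strand, overlap by 64 exonic bases, and the strand setting of the counting is not given in the sources used here, so reads in that stretch cannot be told apart. Cops6 had 88.6 ± 35.3 CPM in WT and 68.8 ± 14.4 without Pml (log2 fold change -0.37, SE 0.328).

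Mcm5, the subunit that forms a gate of the ring with Mcm2 (ENSMUSG00000005410.6, chr8:75109569-75128439, plus strand), was the other gene without overlap. Its level was 87.2, 50.4 and 99.0 CPM in the WT libraries and 39.0, 24.2 and 42.7 in those without Pml. The highest knockout library thus stood just under the lowest WT library, WT replicate 2. The means were 78.8 ± 25.4 and 35.3 ± 9.74 CPM (SD, n = 3 each), with a log2 fold change of -1.17 (SE 0.341, 95% interval -1.93 to -0.41) and an edgeR adjusted p of 0.220. DESeq2 gave an adjusted p of 0.0582, and an adjusted p of 0.0658 stands in the authors' deposited table.

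Mcm3, which neighbours Mcm5 in the ring (ENSMUSG00000041859.10, chr1:20802968-20820312, minus strand), had 230, 143 and 255 CPM in WT and 145, 81.5 and 116 without Pml. The groups touched: knockout replicate 1 was marginally above WT replicate 2. The log2 fold change was -0.88 (SE 0.316) with an edgeR adjusted p of 0.242.

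Mcm2, whose tail also carries histones past the fork (ENSMUSG00000002870.8, chr6:88883474-88898780, minus strand), had 92.3, 29.6 and 79.4 CPM in WT and 42.1, 36.4 and 44.2 without Pml. WT replicate 2 was the lowest of all 6 libraries, and both other WT libraries were above every knockout library. The log2 fold change was -0.73 (SE 0.383) with an edgeR adjusted p of 0.375.

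Mcm6 (ENSMUSG00000026355.11, chr1:128331590-128359664, minus strand) had 116, 39.2 and 182 CPM in WT and 89.1, 74.2 and 93.1 without Pml. The knockout libraries sat within the wide span of the WT libraries. Its log2 fold change was -0.41 (SE 0.444) with an edgeR adjusted p of 0.663, and the sign turned without WT replicate 3 (0.12).

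Mcm4 (ENSMUSG00000022673.5, chr16:15623897-15637400, minus strand) was the ring gene that went the other way. Reads numbered 122, 9 and 327 in WT and 481, 326 and 574 without Pml, or 36.3, 7.19 and 74.2 CPM against 72.4, 53.8 and 85.6. WT replicate 3 lay among the knockout libraries, whereas WT replicates 1 and 2 were below all of them. The log2 fold change was 0.80 (SE 0.572, 95% interval -0.48 to 2.07) with an edgeR adjusted p of 0.508. Set against WT replicate 3 alone it was -0.08, so its direction rests on WT replicates 1 and 2.

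Outside the ring, the activators were measured at lower depth. Mcm10 (ENSMUSG00000026669.14, chr2:4989714-5012791, minus strand) had 55.1, 24.0 and 46.8 CPM in WT and 27.2, 15.7 and 19.5 without Pml. Knockout replicate 1 overlapped WT replicate 2, and both other knockout libraries were below all WT libraries. The log2 fold change was -1.03 (SE 0.372) with an edgeR adjusted p of 0.242.

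Cdc45, the factor that joins the ring as origins fire (ENSMUSG00000000028.15, chr16:18780447-18811987, minus strand), had 67, 5 and 115 reads in WT and 95, 77 and 110 without Pml, or 19.9, 4.00 and 26.1 against 14.3, 12.7 and 16.4 CPM. WT replicate 2 was far below the rest and the remaining WT libraries were above every knockout library. Its log2 fold change was -0.27 (SE 0.509) with an edgeR adjusted p of 0.808.

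The GINS subunits were also lowest in WT replicate 2, with small counts there. Gins1 (ENSMUSG00000027454.10, chr2:150905400-150931280, plus strand) had 43, 6 and 107 reads in WT and 77, 72 and 92 without Pml, which is 12.8, 4.80 and 24.3 against 11.6, 11.9 and 13.7 CPM. Gins2 (ENSMUSG00000031821.11, chr8:120578633-120589304, minus strand) had 58.0, 8.79 and 63.1 CPM in WT and 45.7, 23.3 and 32.5 without Pml. The WT libraries of both genes spanned the knockout values; without WT replicate 2 Gins2 was higher in both WT libraries than in every knockout library, whereas Gins1 in WT replicate 1 lay within the knockout range. The log2 fold changes were -0.24 (SE 0.487) for Gins1 and -0.40 (SE 0.552) for Gins2, with edgeR adjusted p of 0.827 and 0.742. Intervals this wide (-1.32 to 0.84 for Gins1) do not show that the genotypes were alike. At its 3′ end Gins2 shares 2758 exonic bases with Gse1 on the opposite strand, and Gse1 had 14.9 ± 11.2 CPM in WT and 22.9 ± 4.45 without Pml.

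Cdc45, Gins1 and Gins2 are also sensitive to how the average is taken. As a difference of mean log2 CPM, in which a low library weighs more, they stood at 0.15, 0.10 and 0.02 instead of below 0.

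**Figure D2:**
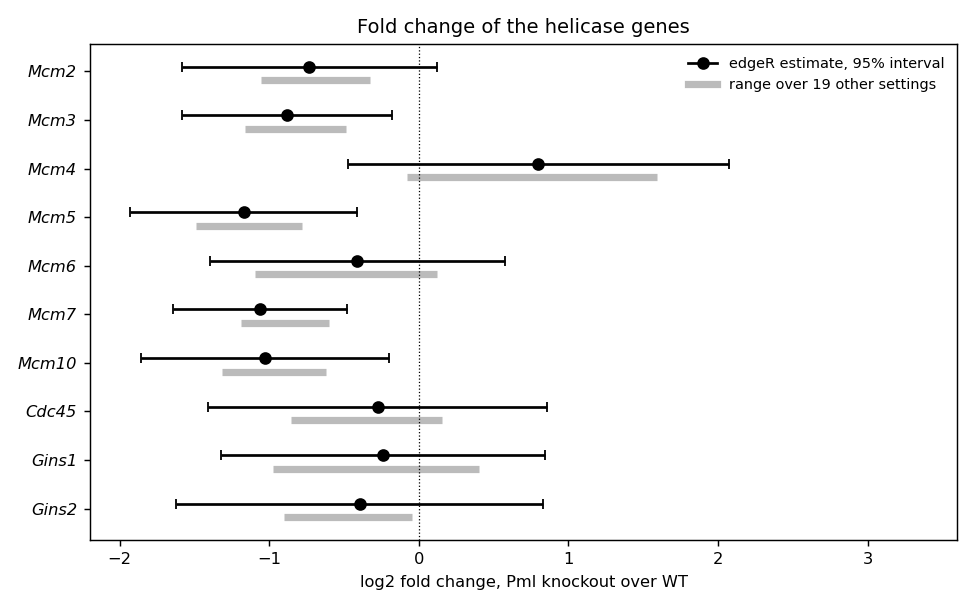
Log2 fold change of each helicase gene, Pml knockout over WT: points give the edgeR estimate with its 95% interval, and grey bars the range over 19 other normalizations, filters, tools and left-out libraries. Mcm2, Mcm3, Mcm5, Mcm7, Mcm10 and Gins2 stay below 0 in all 19, whereas Mcm4, Mcm6, Cdc45 and Gins1 cross 0.

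WT replicate 2 set much of the spread. Its level relative to the mean of the other WT libraries was 0.94 for Mcm7, 0.59 for Mcm3, 0.54 for Mcm5 and 0.47 for Mcm10. It was 0.34 for Mcm2, 0.26 for Mcm6, 0.26 for Gins1, 0.17 for Cdc45, 0.15 for Gins2 and 0.13 for Mcm4. In the knockout the highest library was 1.18 to 1.97 times the lowest over the 10 genes, against 1.22 (Mcm7) to 10.3 (Mcm4) times in WT; Mcm7 was the gene clearly closer among the WT libraries, at 1.22 against 1.52 times. Without WT replicate 2 the median log2 fold change was -0.94 and the knockout libraries lay wholly below both remaining WT libraries for 8 of 10 genes, all but Mcm4 and Gins1, where 17.2% of all genes did so and 17.7% lay wholly above. By edgeR 0 of 10 passed in that fit. Without WT replicate 1 the count was 2 of 10 lower (14.6% of all genes) and 0 higher (17%), and without WT replicate 3 it was 2 of 10 lower (24.3%) and 1 of 10 higher, Mcm4 (26.7%). Against WT replicate 3 alone, the WT library nearest to the knockout in Rn45s share, the mean of the knockout libraries was 0.36 to 0.55 times the WT level for 9 genes and 0.95 times for Mcm4. That fit passed 3 members as lower, Mcm3, Mcm5 and Mcm6 (0.419% of all genes on that side and 0.748% on the other), and it takes the spread of the lone WT library from the other group. Limma's voom with quality weights, which let each library count by its own scatter, passed 5 members as lower, Mcm2, Mcm3, Mcm5, Mcm7 and Mcm10, where 6.72% of all genes were lower and 4.26% higher; without those weights voom passed 0 of 10.

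Ring subunits work in equal numbers, so the make-up of their messages was compared within each library, a measure that needs no scaling between libraries. Mcm4 made up 4.14% (exact 95% interval 3.45 to 4.93), 1.34% (0.614 to 2.53) and 7.83% (7.04 to 8.69) of the Mcm2 to Mcm7 reads in WT replicates 1 to 3. In the knockout it made up 13.2% (12.1 to 14.4), 14.3% (12.9 to 15.9) and 16.5% (15.3 to 17.7). All knockout libraries were above all WT libraries, WT replicate 3 included, at 14.7% ± 1.65 against 4.44% ± 3.26 (SD, n = 3 each). Mcm5 went the opposite way without overlap, from 9.92% ± 0.535 in WT to 7.26% ± 0.879 without Pml. The exact two-sided permutation p was 0.1 for Mcm4 and 0.1 for Mcm5, the smallest that 3 against 3 can give, and 0.3 for each after adjustment over the 6 subunits. Mcm7 took 35.9%, 49.9% and 27.2% in WT and 29.1%, 27.9% and 26.7% in the knockout, with WT replicate 3 inside the knockout range. Mcm2 differed by 0.498 percentage points between the group means (exact permutation p 0.8). Intervals cover counting error only.

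**Figure D3:**
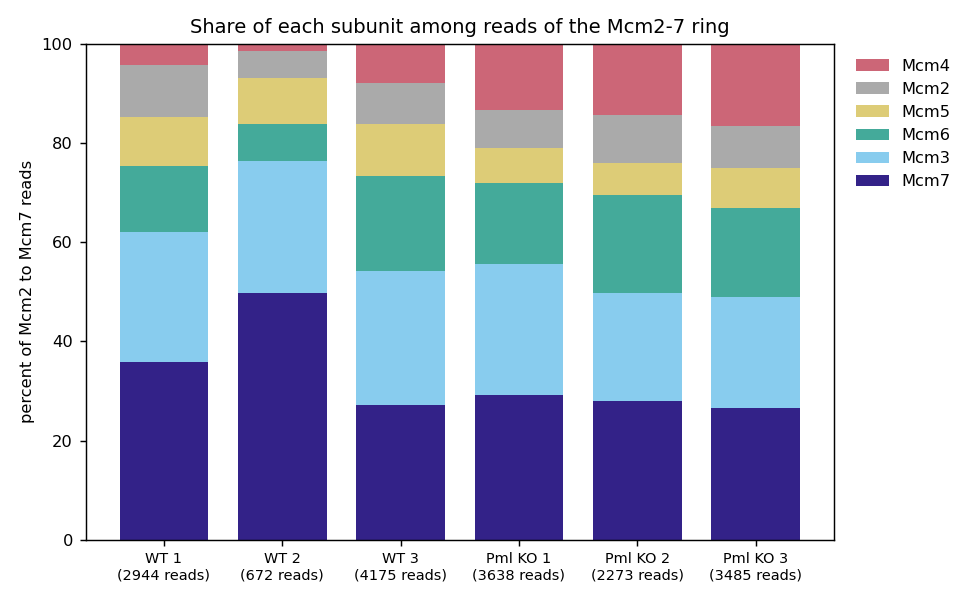
Share of each subunit among the reads of Mcm2 to Mcm7, in percent, for each library, with the number of reads under each bar. The Mcm4 segment is between 1.34% and 7.83% in the WT libraries and between 13.2% and 16.5% in the knockout libraries.

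Base composition moved with the difference between genotypes and with differences among WT libraries. Over 10921 genes with a transcript sequence (96.5% of those tested), the knockout minus WT difference in log2 CPM had a Spearman rho of -0.402 with the GC content of the last 500 transcript bases, and WT replicate 1 minus WT replicate 3 had 0.386. The median knockout minus WT difference was 0.37 among the 2776 genes of lowest GC content and -0.37 among the 2704 of highest, when genes were cut by GC content into 4 bins. For the knockout minus WT replicate 3 alone, the rho with that GC content was -0.0564. With transcript length, the knockout minus WT difference had a rho of 0.232. Mcm4 had the lowest GC content of the 10 genes at its transcript end, 30.6%, against 49.4% for Mcm7 and 53.4% for Gins2, the highest. A further fit removed each library's trend in transcript length and in the GC content of the whole transcript (45.5% for Mcm4, 53.4% for Mcm7). The trend with GC content at the transcript end was not itself removed. In that fit Mcm4 had a log2 fold change of 0.68, Mcm7 -0.99 and Mcm5 -1.17. The median of the 10 was -0.64, beside -0.11 over all genes, of which 58% lay below 0. The part of base composition in the read shares within the ring was not tested. These are correlations across genes, which are not independent replicates.

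**Figure D4:**
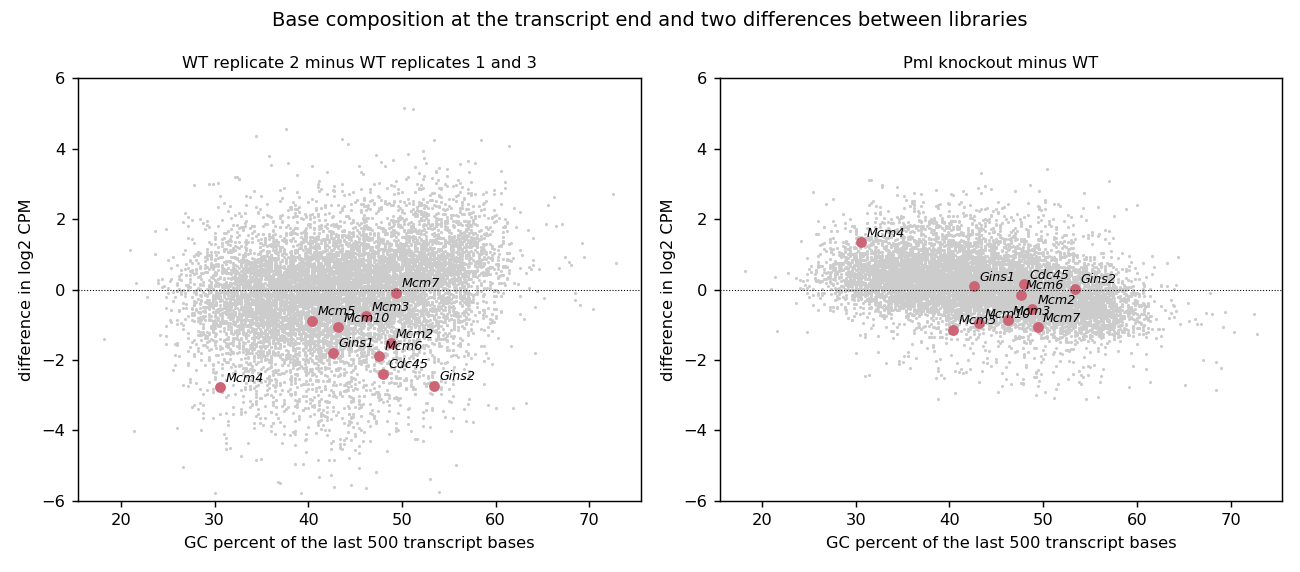
Difference in log2 CPM against the GC content of the last 500 transcript bases, for WT replicate 2 against the other WT libraries and for Pml knockout against WT; grey points are tested genes and red points the helicase genes. Mcm4, at 30.6% GC, is the lowest of the 10 genes on the horizontal axis and stands apart from them in the knockout contrast.

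A 3′ tag library gives about a read per transcript end whatever its length, so the CPM of different genes were ordered without dividing by length. In WT the order of mean CPM was Mcm7, Mcm3, Mcm6, Mcm5, Mcm2, Gins2, Mcm10, Mcm4, Cdc45 and Gins1, from 280 ± 30.5 down to 14.0 ± 9.80. Mcm7 and Mcm3 were the neighbours in that order whose libraries did not overlap. The gap was narrow, as these genes were nearly level in WT replicate 3, at 257 and 255 CPM. In the knockout Mcm4 moved up to the fourth place, at 70.6 ± 16.0 CPM, and was separated without overlap from Mcm2, the fifth at 40.9 ± 4.00. The other neighbours in the knockout order overlapped.

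Across the 6 libraries the genes formed overlapping patterns, given as Pearson r of log2 CPM with n = 6 and with shared scaling. Mcm3 followed Mcm5 (0.97), Mcm10 (0.97) and Mcm7 (0.87). Mcm6 followed Cdc45 (0.97), Gins1 (0.97) and Gins2 (0.94), and Mcm4 followed Cdc45 (0.86). Mcm4 and Mcm7 had an r of -0.48. The genes outside the list whose pattern was most like the members' mean standardized level, among 8225 with at least 10 CPM, were Sfpq (r 0.99), Eif1ad (0.99), Umps (0.99), Prdx4 (0.98), Nup35 (0.98), Wdr76 (0.98), Ranbp1 (0.98) and Tuba1b (0.98). Without the libraries farthest from the median, WT replicates 2 and 3, r was between 0.96 and 1.00 for these 8. They were picked for their r over the same libraries, so this is no independent check.

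The partners of the helicase were read out of the same fit. In that edgeR fit 0 of the 75 tested genes on the lists around it passed (0.00884% of all genes did). At an unadjusted p under 0.05, 10 of 75 were lower and 0 higher, where 9.19% of all genes were lower and 6.7% higher. The lower count was not far from that share, and the difference was not tested. By list, the lower genes were 6 of 25 for G1/S, 2 of 13 for helicase activation and 1 of 4 for fork protection. They were 1 of 20 for G2/M, 0 of 10 for licensing and 0 of 3 for other Mcm genes. Gins3 and Gins4 complete the GINS complex. Gins4 had 26.2, 21.6 and 35.9 CPM in WT and 13.7, 14.8 and 16.4 without Pml, and the groups did not overlap (log2 fold change -0.91, SE 0.320, edgeR adjusted p 0.240). Gins3 stood at -0.38 (SE 0.411).

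Licensing genes were split: of 10 tested, 5 were above 0 and 5 below, with a median of 0.04. Orc4, an origin recognition subunit, stood at 0.66 (SE 0.361) and Orc5 at 0.61 (SE 0.448). Cdt1, which loads the ring, stood at -0.62 (SE 0.374), and Orc1 at -0.94 (SE 0.681). Of 13 genes for helicase activation 10 were below 0 (median -0.41), with the leading-strand polymerase genes Pole at -0.79 (SE 0.362) and Pole3 at -0.74 (SE 0.330), and the activator Ticrr at -0.65 (SE 0.394). All 4 fork protection genes were below 0 (median -0.64): Timeless at -0.80 (SE 0.306), Wdhd1 at -0.81 (SE 0.366), Clspn at -0.48 (SE 0.406) and Tipin at -0.25 (SE 0.418). Mcm8, Mcm9 and Mcm3ap, which are no part of the ring, stood at -0.34, -0.11 and -0.24, with SE of 0.461, 0.684 and 0.316.

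Of 25 G1/S genes 25 were below 0, with a median of -0.49, and of 20 G2/M genes 8 were below 0, with a median of 0.05. These counts turned on single WT libraries. Of the fits given next, the removal of length and GC trends was added after seeing the data. Without WT replicate 2, 19 of 20 G2/M genes (median -0.30), 25 of 25 G1/S genes (median -0.73) and 7 of 10 licensing genes (median -0.24) were below 0, where 49.2% of all genes were. Without WT replicate 3 it was 6 of 20 G2/M genes (median 0.44), 16 of 25 G1/S genes (median -0.08), 3 of 10 licensing genes (median 0.31) and 2 of 4 fork protection genes (median -0.22). There 48.7% of all genes were below 0. With length and whole-transcript GC trends removed, 14 of 20 G2/M genes were below 0 (median -0.25), and the licensing median was -0.26. In that fit 58% of all genes were below 0, with a median of -0.11. The smallest p among the G1/S genes belonged to Chaf1b, a histone chaperone subunit at the fork (-1.97, SE 0.342), Lig1, which joins Okazaki fragments (-1.21, SE 0.322), Rpa2, a single-strand binding subunit (-0.96, SE 0.266), and Chaf1a (-0.82, SE 0.279). Among the G2/M genes it belonged to Cdc20 (-0.66, SE 0.287), Birc5 (-0.64, SE 0.300), Plk1 (-0.66, SE 0.319) and Aurkb (1.06, SE 0.532). By DESeq2 Chaf1b, Lig1 and Rpa2 passed beside Mcm7. The difference between the lists was not tested. In bulk RNA, fewer cells in S phase and less message per cell cannot be told apart.

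**Figure D5:**
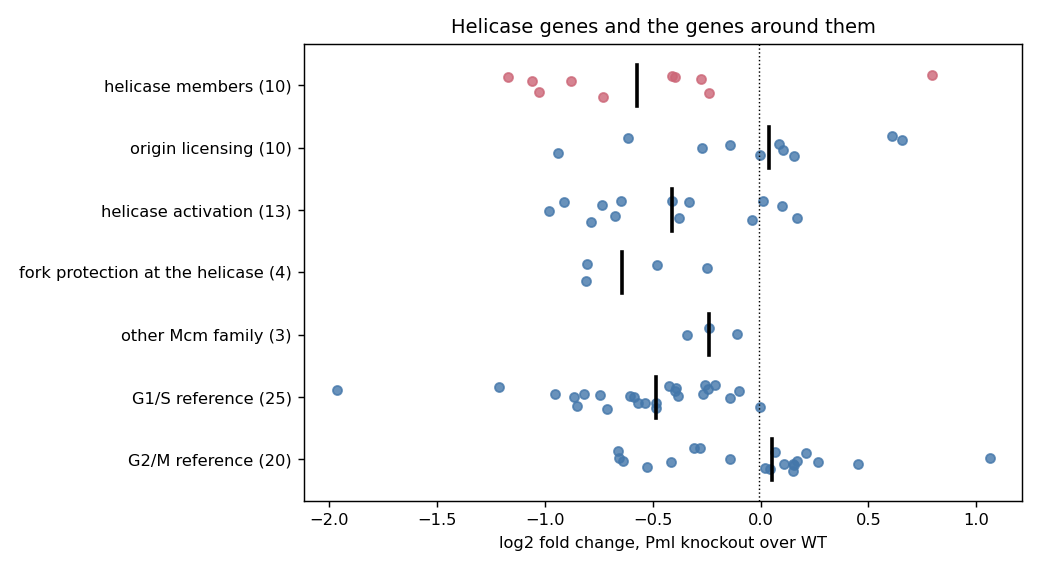
Log2 fold change, Pml knockout over WT, of the helicase genes (red) and of the lists around them (blue), with the number tested in brackets; black bars are list medians and the dotted line the median of all genes. The helicase median is -0.57 and the G1/S median -0.49, and the licensing and G2/M medians are 0.04 and 0.05; without WT replicate 2 these 4 medians are -0.94, -0.73, -0.24 and -0.30.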

How the data were processed

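RNA from 6 neurosphere samples, with an integrity number above 7, was made into 3′ tag libraries (QuantSeq FWD, 20 to 24 PCR cycles), per the labels' protocols. FastQC, HISAT2, HTSeq, edgeR and mm10 are named in the submitters' processing notes. Versions, annotation and strand option were not given in the sources used here. Per gene, the deposited read counts are whole numbers and not normalized. The log2 fold changes and p-values of the authors' deposited table were used only where named. The 6 per-sample columns of scaled values were not used.

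Genotypes were compared with edgeR 4.0.16 under R 4.3.3, with its default filter (count minimum 10, total 15; 11317 genes), trimmed mean of M values, and the robust quasi-likelihood F test of knockout against WT without covariate, with Benjamini-Hochberg adjustment over all genes tested. SE was taken as the absolute log2 fold change divided by the root of F. CPM carry the library factors; log2 CPM used a prior count of 2. Totals limit precision: 5 to 11 reads stand behind Mcm4, Cdc45, Gins1 and Gins2 in WT replicate 2. Shares have exact Clopper-Pearson intervals at 95%.

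Alternatives were other normalizations and filters, DESeq2 1.42.0, limma 3.58.1, a replicate block and left-out libraries. Added after the data were seen was the removal of trends in transcript length and whole-transcript GC content (GENCODE M21). The fits were tested on simulated data. Named were all members, up to 4 genes per list with the smallest p, Gins3, Gins4 and the 8 genes most like the members. Cops6 and Gse1 were added because they overlap members. Members and lists were chosen with earlier results of these data known.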

Additional observations from a re-analysis of the deposited data

How the results depend on the processing

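The median log2 fold change of the 10 helicase genes stayed below 0 under all 19 alternatives, from -0.97 without both WT replicates 1 and 2 to -0.21 with library totals. With library totals the median of all genes was 0.43 and 24.4% of them lay below 0. Cdc45 and Gins1 were above 0 there but below that median. Mcm2, Mcm3, Mcm5, Mcm7, Mcm10 and Gins2 stayed below 0 in all 19. Signs turned for Cdc45 (0.077) and Gins1 (0.085) with library totals, for Mcm6 (0.12), Cdc45 (0.15) and Gins1 (0.40) without WT replicate 3, and for Mcm4 (-0.076) without both WT replicates 1 and 2; the cause was not tested. Without WT replicate 2, Mcm6 stood at -0.80, Cdc45 at -0.66 and Gins1 at -0.58. Members that passed numbered 5 by voom with quality weights, 1 by DESeq2, 1 by edgeR's exact test and 3 without both WT replicates 1 and 2, and 0 to 1 with single libraries left out, the 1 being Mcm7 without WT replicate 3. The weights were 1.62, 0.392 and 0.353 for WT replicates 1 to 3 and 1.16, 1.59 and 2.42 for knockout replicates 1 to 3. WT replicate 1 thus weighed most on the WT side. Of the 75 other pathway genes tested, 7 passed by voom with quality weights, all lower, where 6.72% of all genes were lower and 4.26% higher. By DESeq2 3 passed, all lower, where 1.97% of all genes were lower and 0.928% higher. By the exact test 2 passed, all lower, where 1.51% of all genes were lower and 0.99% higher. With single libraries left out 0 to 3 passed. The 3 were lower without WT replicate 3, where 7.97% of all genes were lower and 5.01% higher.

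Over all genes, against 1, the count was 0 with relative log expression factors, library totals, a 5 CPM minimum, limma voom, no Rn45s row or removed length and GC trends; it was 3 with no filter, 328 by DESeq2, 283 by the exact test, 1242 by voom with quality weights, 142 without both WT replicates 1 and 2, and 0 to 1526 with single libraries left out (1526 without WT replicate 3). With the replicate block 2 genes and 0 members passed and the members' median was -0.39. Same-numbered libraries deviated together with r of -0.00254, 0.0667 and 0.188, the last being the highest of any WT and knockout pair. WT replicate 1 correlated best with knockout replicate 3 (0.0397) and WT replicate 2 with knockout replicate 1 (0.0871). Values this small, with 3 libraries per group, cannot tell whether the numbers pair the samples. Depth limits Mcm4, Cdc45, Gins1 and Gins2 in WT replicate 2.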
